A study of Saccharomyces cerevisiae with 12 samples.

Results

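The RNA of budding yeast (Saccharomyces cerevisiae) that had earlier grown with radicicol was compared with the RNA of yeast that never met the drug. Every gene identifier of the deposited count table with enough counts in the 6 RNA libraries was taken, which left 5563 of 7130 identifiers. The series holds 12 libraries, of which 6 are RNA-seq libraries and the others are ribosome profiling libraries, which were not used. Its title places the comparison in the question of what persists after a passing loss of Hsp90 activity.

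Per the labels, the study began from 3 yeast colonies, and each colony's overnight culture was divided into medium with 10 µM radicicol and medium without it for another night. Both kinds of culture were then brought to an OD600 of 0.001 in 100 ml of medium and grown for 24 h before harvest by filtration. The untreated and the pre-treated group each held 3 libraries of poly(A)-selected RNA, cut to fragments of the length of ribosome footprints. Strain, genotype, mating type, medium and density at harvest are not given in the labels. All 6 libraries held reads of a reporter plasmid with a His and a lacZ reporter gene, so it was present in both groups. The labels mention no drug in this last growth, so the comparison reads RNA after regrowth, not during treatment. P-values reflect how far the 3 cultures of a group differed from each other.

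Radicicol binds the ATP pocket of Hsp90, the chaperone that folds and holds kinases, transcription factors and other client proteins. Yeast has a constitutive Hsp90 gene, HSC82, and a stress-inducible copy, HSP82, and loss of Hsp90 function is known to release the heat shock factor Hsf1, which raises chaperone genes. The sulfur pathway, which recurs below, takes up sulfate, reduces it to sulfide and builds homocysteine, methionine, cysteine and S-adenosylmethionine under the activator Met4.

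The libraries held between 729461 and 2453746 counts, with untreated replicate 3 the shallowest. Levels are given in CPM after TMM scaling, and 3 counts in a library stand for 1.22 to 4.11 CPM. In a principal component analysis the first component held 53.1% of the variance and separated the treatments, and the second held 16.7% and set untreated replicate 2 apart. The pre-treated libraries lay closer to each other (median absolute log2 difference of a gene 0.11 to 0.13) than the untreated ones did (0.19 to 0.20). Small nucleolar RNAs took 0.98% of the counts in untreated replicate 2 and 1.69% to 2.05% in the other 5 libraries, and their part in the results was not tested. The a-specific mating genes had a summed level of 635 to 866 CPM without the drug and 956 to 1086 CPM after it. The alpha-specific genes summed to 65.2 to 74.3 and 90.7 to 101 CPM, with MF(ALPHA)2 at 0 in every library. Genes of meiosis summed to 46.6 to 79.1 and 56.4 to 59.3 CPM. No read was counted on any of the 55 mitochondrially encoded features. In such bulk libraries a smaller number of cells of a kind and less RNA per cell cannot be told apart. No spike-in is described, so changes are shifts within a library's own pool of RNA.

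At an adjusted p threshold of 0.05 (edgeR, quasi-likelihood, Benjamini-Hochberg), pre-treatment changed 730 genes (13.1%), of which 393 were higher (7.06%) and 337 lower (6.06%). Most of the changes were small: the median fold was 1.51 among the higher and 1.42 among the lower genes, and 419 of the 730 changed by less than 1.5-fold. Of all genes tested, 92.4% lay within 1.5-fold, and the median log2 change was -0.005. Changes over 2-fold ran mostly upward, with 64 rises (1.15%) and 15 falls (0.270%). Over 4-fold there were 8 rises and 1 fall. The pre-treated libraries lay wholly above the untreated ones for 893 genes (16.1%) and wholly below them for 780 (14.0%), and for 714 of the 730 called genes the groups did not overlap. Without pre-treated replicate 2 the calls dropped to 404, with 243 higher and 161 lower, and without pre-treated replicate 3 the lower calls dropped to 197. In each fit that left out 1 of the 6 libraries, 343 of the 730 genes and 67 of the 79 with a change over 2-fold were still called in the same direction.

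**Figure D1:**
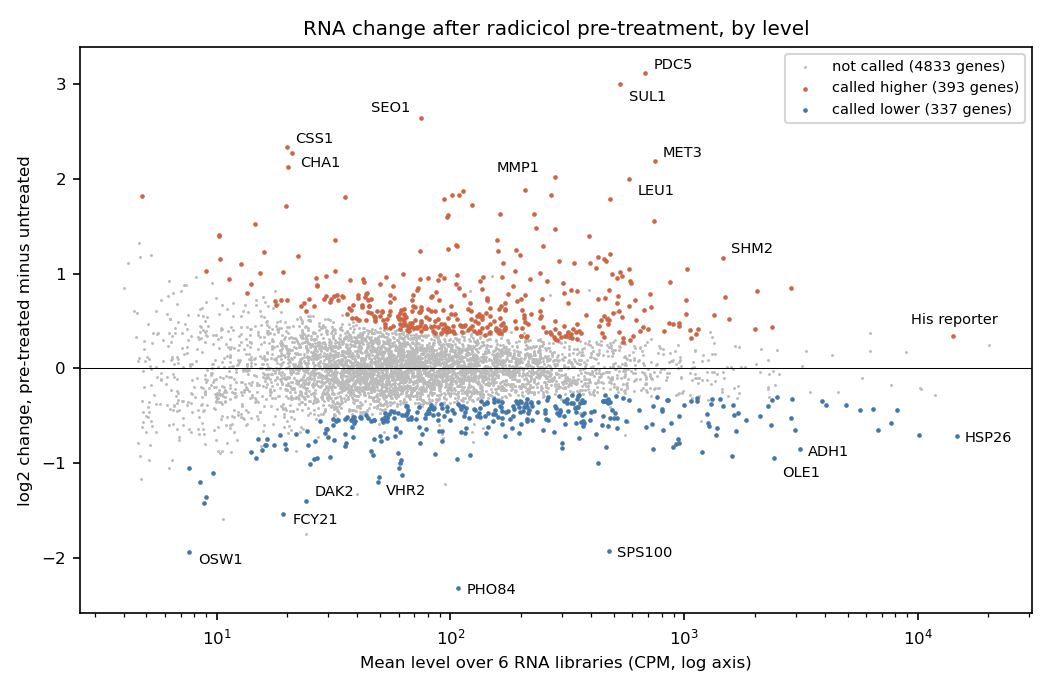
Each point is 1 of the 5563 genes tested, with its mean level over the 6 RNA libraries in CPM on a log axis and its fitted log2 change, pre-treated minus untreated, on the vertical axis. The 393 genes called higher reach a log2 change of 3.12 for PDC5 and the 337 called lower reach -2.31 for PHO84, while most called genes lie between -1 and 1.

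PDC5 (YLR134W, chromosome XII, 410723 to 412414, R64-1-1) rose most. It encodes a minor form of pyruvate decarboxylase, the enzyme that turns pyruvate into acetaldehyde in fermentation. Its level was 139, 152 and 127 CPM in the untreated libraries and 1188, 1224 and 1259 CPM in the pre-treated ones. All 3 pre-treated cultures were high and close to each other, and the groups stood far apart (8.68-fold, log2 3.12, SE 0.11, adjusted p = 1.00e-15). The main pyruvate decarboxylase gene, PDC1, stood at 19129, 20598 and 15372 CPM without the drug and 22615, 21980.0 and 20866 CPM after it, and its change was not called although the groups did not overlap (log2 0.25, SE 0.12, adjusted p = 0.200). A further isozyme gene, PDC6, was called higher by a small amount (log2 0.41, SE 0.10, adjusted p = 0.00513), a call that ended without pre-treated replicate 2 (adjusted p = 0.0647). Per kilobase of gene, PDC5 went from 0.692 ± 0.041% (SD, n = 3) to 4.83 ± 0.302% of the RNA of the 3 isozymes, and PDC1 from 90.7 ± 0.827% to 86.1 ± 0.718%. The rise of PDC5 thus stood on a low base, and PDC1 remained the main source of this counted RNA in every library. Reads that match several of these genes were not counted, per the per-library file headers, so the shares are uncertain.

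The uptake of sulfate and its reduction to sulfide was the list that moved furthest. Of its 11 genes, 10 rose and 0 fell, against 7.06% and 6.06% of all genes tested. The median log2 change of the list was 1.48, against -0.005 over all genes, and the 10 calls were kept in each fit that left out 1 library. The sulfate permease gene SUL1 (YBR294W, chromosome II, 789235 to 791814), near the right end of its chromosome, stood at 108, 125 and 124 CPM without the drug. After it, SUL1 stood at 854, 1008 and 978 CPM (log2 3.00, SE 0.11, adjusted p = 3.60e-15). Its paralog SUL2 went from 349, 299 and 341 to 735, 678 and 550.1 CPM (log2 0.99, SE 0.11, adjusted p = 8.09e-07). In both permease genes the groups did not overlap. Because SUL1 rose more, its share of their RNA per kilobase went from 27.3 ± 2.98% to 60.1 ± 5.11%, so the rarer permease RNA became the commoner one.

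The steps after uptake rose as a run. MET3 (YJR010W, chromosome X, 456239 to 457774), the gene of ATP sulfurylase, which activates sulfate, was at 254, 294 and 259 CPM without the drug and 1243, 1341 and 1099 CPM after it (log2 2.19, SE 0.11, adjusted p = 8.53e-13). The kinase of the next step, MET14, went from 214, 197 and 239.9 to 726, 546 and 426 CPM (log2 1.40, SE 0.19, adjusted p = 0.00189), with the 3 pre-treated cultures spread widely but all above the untreated ones. MET16, the reductase that makes sulfite, rose by 1.48 on the log2 scale (SE 0.14). Both subunits of sulfite reductase, which makes sulfide, rose, and they did so evenly across cultures. MET5 was at 218, 204 and 229 CPM without the drug and 745, 765 and 722 CPM after it (log2 1.78, SE 0.10, adjusted p = 6.12e-12), and MET10 at 369.9, 352 and 414 CPM without the drug and 1050.3, 1183 and 1085 CPM after it (log2 1.55, SE 0.10, adjusted p = 1.04e-10). The genes that build siroheme, the cofactor of that reductase, rose with it: MET1 (chromosome XI, 571612 to 573393) from 99.9, 124 and 135 to 479.7, 464 and 311 CPM (log2 1.83, SE 0.18, adjusted p = 6.63e-05) and MET8 by 1.35 on the log2 scale (SE 0.14). MET22, a phosphatase that clears the by-product of sulfate reduction, rose by 0.76 on the log2 scale (SE 0.09). The remaining gene, the sulfonate transporter gene SOA1, was near the floor at 2.13, 1.55 and 5.33 CPM without the drug and 5.70, 4.53 and 5.74 CPM after it and was not called (log2 1.11, SE 0.47, adjusted p = 0.132).

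Sulfide is then joined to a carbon chain and passed to methionine and cysteine, and 12 of 19 genes of these steps rose and 0 fell (median log2 change 0.72). 10 of the 12 calls were kept in each fit that left out 1 library, and MET7 and MET12 were not. The changes were smaller than in sulfate reduction in most of these genes. MET17, whose enzyme takes up the sulfide, rose from 2042 ± 307 to 3689.8 ± 359.5 CPM (SD, n = 3, log2 0.85, SE 0.11, adjusted p = 1.20e-05), and MET6, the methionine synthase gene, rose by 0.81 on the log2 scale (SE 0.10). SAM1 and SAM2, which make S-adenosylmethionine, rose by 0.96 on the log2 scale (SE 0.10) and 0.72 (SE 0.13), and CYS3, on the way from methionine to cysteine, by 1.05 (SE 0.11). MHT1 (chromosome XII, 16639 to 17613), which makes methionine from S-methylmethionine, had the largest change of the list, from 49.4, 50.7 and 41.3 to 188, 185 and 139.6 CPM (log2 1.83, SE 0.14, adjusted p = 2.79e-09). STR3, a lyase gene between cysteine and homocysteine, was not called, with 271, 311 and 268 CPM without the drug and 657, 546 and 308 CPM after it. Its pre-treated replicate 3 lay within the untreated range and the other pre-treated libraries far above it, and without that replicate STR3 was called higher (adjusted p = 8.36e-07).

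Genes for the import and breakdown of organic sulfur compounds also rose, 10 of the 15 tested, with 0 lower and a median log2 change of 0.76, and the 10 calls were kept in each fit that left out 1 library. MMP1 (chromosome XII, 17956 to 19707), the S-methylmethionine permease gene, is the neighbour of MHT1. It went from 108, 120.1 and 101 to 426, 530.3 and 396 CPM (log2 2.02, SE 0.12, adjusted p = 2.87e-11). SEO1 (YAL067C, chromosome I, 7235 to 9016), a permease-like gene close to a chromosome end, was low at 14.9, 27.9 and 17.3 CPM without the drug and reached 114, 155 and 119 CPM after it (log2 2.64, SE 0.20, adjusted p = 2.40e-08). In both, no untreated library came near the pre-treated ones. The sulfatase gene BDS1 rose 3.66-fold, the glutathione transporter gene OPT1 2.77-fold, the sulfonate dioxygenase gene JLP1 2.29-fold and the cysteine transporter gene YCT1 2.26-fold. DUG3, of glutathione breakdown, rose 3.07-fold, with 176, 161 and 102 CPM after the drug against 44.6, 50.2 and 49.3 CPM without it. In the list of glutathione synthesis and use, 2 of 8 genes were higher (25.0%) and 1 lower (12.5%), against 7.06% and 6.06% of all genes. Its median log2 change was 0.02. The synthesis genes GSH1 (log2 0.69, SE 0.10) and GSH2 (log2 0.52, SE 0.12) were higher and GTT1 was lower, and the GSH2 call ended without pre-treated replicate 2.

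Among the 6 regulators of these genes, 3 rose and 0 fell. MET32, a zinc finger protein that brings Met4 to DNA, went from 54.2, 52.3 and 70.6 to 169, 143 and 98.0 CPM (log2 1.26, SE 0.20, adjusted p = 0.000988). MET28, a cofactor of the same complex, rose by 1.01 on the log2 scale (SE 0.14), and MET30, whose ubiquitin ligase restrains Met4, by 0.83 (SE 0.12). The RNA of the activator itself was not called: MET4 stood at 151, 161 and 183 CPM without the drug and 197, 184 and 168 CPM after it (log2 0.17, SE 0.11, adjusted p = 0.344). Nor were CBF1 (log2 0.37, adjusted p = 0.108) and MET31 (log2 0.01, adjusted p = 0.988), the latter with a change that turned sign in some fits. Within the pre-treated group, replicate 3 had the lowest level in 27 of the 35 genes called higher in the lists of sulfate reduction, methionine steps, organic sulfur and Met4 regulators (77.1%), against 44.3% of all genes called higher. For sulfate uptake and reduction the list's median was 1.71, 1.48 and 1.11 in pre-treated replicates 1, 2 and 3, relative to the untreated mean.

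**Figure D2:**
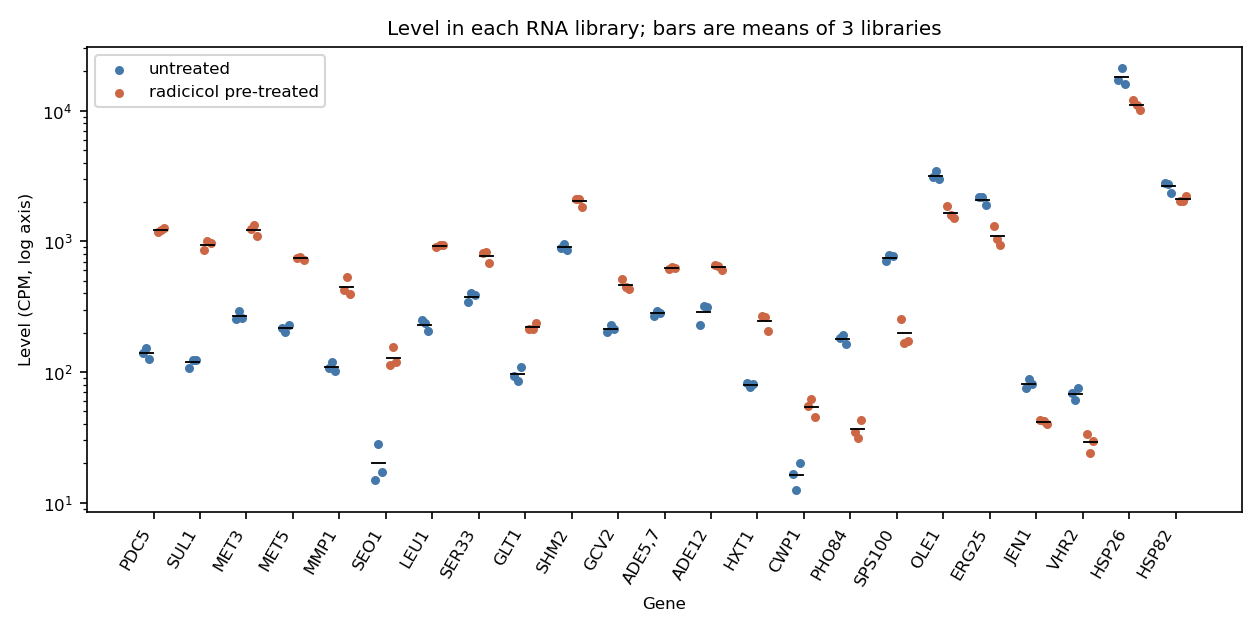
Each point is 1 RNA library and each bar the mean of 3, with the level in CPM on a log axis and the genes along the horizontal axis. The pre-treated points of PDC5, SUL1, MET3 and LEU1 lie at several times the untreated ones, those of PHO84 and SPS100 lie far below, and those of HSP82 lie just below.

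In purine synthesis too, most of the changes were rises. The list holds 17 genes, of which 9 were called higher and 0 lower (median log2 change 0.69), and the 9 calls were kept in each fit that left out 1 library. The risers were enzymes of the path to AMP, while the 5 PRS genes for the sugar phosphate precursor and the activators BAS1 and PHO2 were not called. ADE4, the entry enzyme, went from 175, 234 and 227 to 376, 387 and 415 CPM (log2 0.90, SE 0.11, adjusted p = 3.76e-06). ADE5,7 (YGL234W, chromosome VII, 56482 to 58890), which covers a pair of later steps, went from 267, 294 and 281 to 619, 640.4 and 623 CPM (log2 1.16, SE 0.09, adjusted p = 6.74e-09). ADE12, the first step from IMP to AMP, went from 231, 323 and 317 to 656, 645 and 599 CPM (log2 1.14, SE 0.11, adjusted p = 1.81e-07). In all 3 genes the groups were well apart and the pre-treated cultures close together. ADE1, ADE17, ADE8, ADE2, ADE13 and ADE6 rose by between 0.69 and 1.06 on the log2 scale. The paralogs of the last steps to IMP parted: ADE17 went from 333, 371 and 399.8 to 779.9, 752 and 629 CPM (log2 0.98, SE 0.11, adjusted p = 4.92e-07), while ADE16 held 597, 582 and 516 CPM without the drug and 549, 567 and 574 CPM after it (log2 -0.01, SE 0.09, adjusted p = 0.963). The share of ADE17 in their RNA per kilobase went from 39.4 ± 3.95% to 55.9 ± 3.31%. BAS1 stood at 88.8, 70.9 and 78.6 CPM without the drug and 73.7, 53.0 and 58.3 CPM after it (log2 -0.36, SE 0.14, adjusted p = 0.103), and it was called lower without pre-treated replicate 1 (adjusted p = 0.0393).

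In the branch from IMP to GMP and in salvage, 2 of 14 genes were called higher (14.3%) and 3 lower (21.4%), against 7.06% and 6.06% of all genes. IMD2, an IMP dehydrogenase gene near a chromosome end, rose from 10.6, 9.83 and 5.33 to 29.7, 34.4 and 28.7 CPM (log2 1.72, SE 0.23, adjusted p = 1.20e-05), from few counts. Its relatives IMD3 and IMD4 stood at 0.12 and -0.19 on the log2 scale and were not called, and IMD2 made up 5.07 ± 1.34% of their RNA per kilobase before and 15.8 ± 2.81% after. These genes are close copies of each other, and reads shared between copies were left out of the counts, per the per-library file headers, so their levels are uncertain. FCY21, a gene of the purine and cytosine permease family, fell from 32.4, 27.9 and 24.0 to 6.92, 8.16 and 15.3 CPM (log2 -1.53, SE 0.26, adjusted p = 0.000177), and the cytosine deaminase gene FCY1 rose by 0.85 on the log2 scale (SE 0.13). Pyrimidine synthesis gave 2 of 10 higher, URA4 and URA7, and neither call was kept in each fit that left out 1 library.

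Folate-bound one-carbon units feed both purine and methionine synthesis, and 9 of the 13 genes of this list rose, with 1 lower and a median log2 change of 0.59. SHM2 (YLR058C, chromosome XII, 257992 to 259401), the cytosolic serine hydroxymethyltransferase gene, which makes such units from serine, went from 890.3, 957 and 856 to 2118, 2121 and 1851 CPM (log2 1.17, SE 0.10, adjusted p = 1.22e-08). Its mitochondrial counterpart SHM1 moved the other way, from 343, 295 and 229 to 235, 205 and 210.3 CPM (log2 -0.44, SE 0.12, adjusted p = 0.0164), with groups that overlapped. The SHM1 call ended at an adjusted p of 0.105 without untreated replicate 1, and at 0.103 and 0.0763 without pre-treated replicates 2 and 3. The share of SHM2 in their RNA per kilobase was 76.6 ± 3.30% before and 90.7 ± 0.728% after. The 3 genes that belong only to the glycine cleavage complex, which draws units from glycine, rose together. GCV2 went from 201, 229 and 213 to 511, 446 and 431 CPM (log2 1.11, SE 0.10, adjusted p = 5.33e-08), GCV1 rose by 1.01 on the log2 scale (SE 0.11) and GCV3 by 0.90 (SE 0.10). LPD1, the subunit that complex shares with others, was not called (log2 0.03, adjusted p = 0.880). Of the interconverting enzymes, MTD1 rose by 0.96 on the log2 scale (SE 0.12) and ADE3 by 0.45 (SE 0.09), and FOL1, of folate synthesis, by 0.77 (SE 0.12).

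Serine, the donor of these units, is made in a short path, and here too the copies of an enzyme parted. Of 10 genes of serine, glycine and threonine 4 were called higher and 2 lower (median log2 change -0.07), against 7.06% and 6.06% of all genes. AGX1, of glycine synthesis, fell (log2 -0.55 to -0.43 over the alternative fits). SER33, a phosphoglycerate dehydrogenase gene, went from 343, 404 and 387 to 822, 829 and 688 CPM (log2 1.05, SE 0.10, adjusted p = 1.41e-07), while SER3, its paralog, went from 136, 184 and 156 to 91.2, 76.1 and 84.6 CPM (log2 -0.92, SE 0.13, adjusted p = 1.76e-05). SER3 overlaps an annotated feature on the same strand, so its counts are uncertain, and so are those of BNA2, URA7, IFH1 and YCR099C, named elsewhere. The later steps SER1 (log2 1.21, SE 0.10, adjusted p = 7.80e-09) and SER2 (log2 0.63, SE 0.13, adjusted p = 0.00195) both rose. A gene that breaks serine down rose too. CHA1 (YCL064C, chromosome III, 15798 to 16880), the catabolic serine and threonine deaminase gene, was low at 6.38, 6.21 and 10.7 CPM and reached 39.9, 37.2 and 25.3 CPM (log2 2.27, SE 0.26, adjusted p = 1.56e-06). Its pre-treated replicate 3 was the lowest of the group but still above every untreated library. SRY1, a dehydratase of hydroxyaspartate, was named after its values were seen and went from 99.9, 132 and 97.3 to 346, 375 and 316 CPM (log2 1.63, SE 0.12, adjusted p = 1.36e-09).

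In branched-chain amino acid synthesis 6 of 13 genes were called higher (46.2%) and 3 lower (23.1%), against 7.06% and 6.06% of all genes. LEU1 (YGL009C, chromosome VII, 476313 to 478652), isopropylmalate isomerase of the leucine branch, went from 249, 236 and 207 to 911, 936 and 945 CPM (log2 2.00, SE 0.10, adjusted p = 1.16e-12), with pre-treated cultures close to each other. OAC1, a mitochondrial carrier known to export a leucine precursor, went from 103, 158 and 109 to 265, 255 and 245 CPM (log2 1.03, SE 0.13, adjusted p = 1.14e-05), and ILV3 and BAT2 rose by 0.73 on the log2 scale (SE 0.09) and 0.61 (SE 0.11). All 6 higher calls were kept in each fit that left out 1 library. None of the lower calls, LEU3, ILV5 and ILV6, was kept in all of them, and without pre-treated replicate 2 or 3 no gene of the list was called lower. LEU2, which encodes the enzyme right after LEU1 and is a common selection marker, stood at 181, 159 and 153 CPM without the drug and 157, 137 and 174 CPM after it and was not called (log2 -0.09, SE 0.11, adjusted p = 0.671).

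Other amino acid genes changed in part. In glutamate, glutamine and nitrogen use, 6 of 24 genes were higher (25.0%) and 1 lower (4.17%), against 7.06% and 6.06% of all genes. GLT1 (YDL171C, chromosome IV, 149203 to 155640), the glutamate synthase gene, went from 93.0, 85.9 and 109 to 214, 215 and 239 CPM (log2 1.24, SE 0.11, adjusted p = 4.90e-08), and the ammonium permease gene MEP2 rose by 0.69 on the log2 scale (SE 0.12). The proline oxidase gene PUT1 was the faller, from 586, 602 and 582 to 315, 333 and 349.9 CPM (log2 -0.83, SE 0.09, adjusted p = 8.70e-07), with tight and separate groups. The higher count there was 3 without pre-treated replicate 3. Lysine gave 4 of 9 higher, LYS9 first (log2 0.72, SE 0.10), and LYS20 lower (log2 -0.43, SE 0.10). Aromatic amino acids and histidine gave 6 of 23 higher and 0 lower, with the chorismate mutase gene ARO7 at 20.7, 26.4 and 13.3 CPM without the drug and 39.5, 46.7 and 46.4 CPM after it (log2 1.02, SE 0.19, adjusted p = 0.000600). Arginine gave 2 of 15 higher (13.3%), and neither call was kept in each fit that left out 1 library. Among 16 permease genes 3 rose and 2 fell. AGP3 went from 44.6, 43.0 and 36.0 to 117, 164 and 158 CPM (log2 1.79, SE 0.15, adjusted p = 1.07e-08), DIP5, for glutamate and aspartate, rose by 1.19 on the log2 scale (SE 0.22), and BAP3 and BAP2, for branched-chain amino acids, fell by 0.56 (SE 0.10) and 0.46 (SE 0.10). The alanine transaminase gene ALT1, named after its values were seen, went from 148, 164 and 113 to 364, 370.3 and 333 CPM (log2 1.30, SE 0.11, adjusted p = 2.40e-08).

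GCN4 encodes the activator of many amino acid synthesis genes, and its RNA fell while part of them rose. It stood at 1956, 1982 and 1955 CPM without the drug and 1506, 1385 and 1378 CPM after it (log2 -0.46, SE 0.09, adjusted p = 0.00140). The untreated cultures were nearly equal and every pre-treated one was lower. PCL5, a cyclin gene that Gcn4 activates and that speeds its breakdown, fell further, from 1261, 1096 and 1068 to 719, 601 and 606 CPM (log2 -0.83, SE 0.10, adjusted p = 3.53e-06). The other 10 genes of that list, the Gcn2 pathway and its partners, were not called, and 2 of them were called higher without untreated replicate 2. GCN4 is controlled mainly at translation, which RNA levels do not show.

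**Figure D3:**
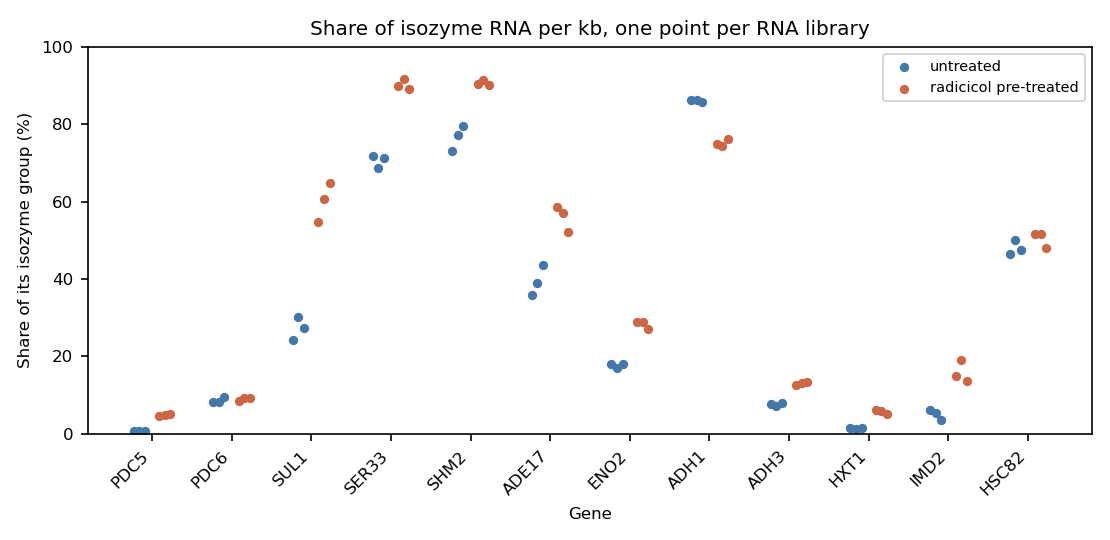
Each point is the share, in percent, of a gene in the summed RNA per kilobase of its group of isozymes in 1 RNA library. SUL1, SER33, SHM2, ADE17, ENO2, HXT1 and IMD2 held larger shares after pre-treatment in all 3 libraries, ADH1 held a smaller one, and the points of HSC82 overlap between the groups.

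Among 17 hexose transporter and glucose signalling genes 2 rose (11.8%), HXT1 and HXT2, and 3 fell (17.6%), against 7.06% and 6.06% of all genes. The HXT2 call ended without untreated replicate 1 or pre-treated replicate 2. HXT1, a low-affinity glucose transporter gene, went from 82.4, 77.1 and 81.3 to 269.6, 264 and 207 CPM (log2 1.63, SE 0.12, adjusted p = 1.63e-09). HXT4, of higher affinity, went from 1116, 1497 and 1005 to 748, 737 and 619 CPM (log2 -0.79, SE 0.13, adjusted p = 0.000726), and HXT3 and HXT5 fell by 0.52 on the log2 scale (SE 0.11) and 0.48 (SE 0.10). HXT3 still held 54.4 ± 0.309% of the RNA per kilobase of the 5 transporters, and HXT1 5.68 ± 0.511%, up from 1.34 ± 0.214%. ADH1, the main alcohol dehydrogenase gene of fermentation, went from 3985, 4393 and 3698 to 2320.0, 2155 and 2206 CPM (log2 -0.85, SE 0.10, adjusted p = 2.28e-06), and its share among ADH1 to ADH5 fell from 86.1 ± 0.303% to 75.2 ± 0.903%. Of 17 glycolysis genes 2 were higher and 2 lower, against 7.06% and 6.06% of all genes. The lower count was 8 without untreated replicate 3 and the higher count 0 without pre-treated replicate 2, and of the 4 calls only TDH1 (log2 -0.71, SE 0.13, adjusted p = 0.000436) was kept in each fit that left out 1 library. Of the enolase paralogs, ENO1 held 82.3 ± 0.565% of their RNA per kilobase before and 71.7 ± 0.957% after, and ENO2 the rest. Reads that match both copies were not counted, so levels of enolase, TDH and hexose transporter genes are uncertain.

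Some genes for life on other carbon sources fell. Among genes of gluconeogenesis and the glyoxylate cycle 7 of 16 fell and 0 rose, with a median log2 change of -0.47. The lactate permease gene JEN1 went from 75.5, 88.0 and 81.3 to 43.2, 42.2 and 40.1 CPM (log2 -0.96, SE 0.13, adjusted p = 1.40e-05). MLS1 and ICL1, the enzymes particular to the glyoxylate cycle, fell by 0.92 on the log2 scale (SE 0.16) and 0.73 (SE 0.17), and MDH2 by 0.61 (SE 0.11). FBP1, of gluconeogenesis, was low at 10.6, 7.76 and 6.66 CPM without the drug and 3.26, 7.25 and 2.87 CPM after it and was not called (log2 -0.96, SE 0.38, adjusted p = 0.105), although it was without pre-treated replicate 2 (adjusted p = 0.0377). Fatty acid oxidation and peroxisomes gave 7 of 21 lower and 0 higher (median log2 change -0.40), led by the acyl-CoA oxidase gene POX1 (log2 -0.95, SE 0.20, adjusted p = 0.00186) and SPS19 (log2 -0.78, SE 0.13, adjusted p = 0.000231). In each list 4 of the 7 calls were kept in each fit that left out 1 library. The count was 4 without pre-treated replicate 3 in the former, and 4 without any 1 pre-treated replicate in the latter.

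Biotin and NAD genes fell more often than they rose, 9 lower and 3 higher of 19, with a median log2 change of -0.27. VHR2 (YER064C, chromosome V, 282705 to 284222), the paralog of a regulator of biotin uptake, went from 68.6, 61.1 and 76.0 to 33.8, 24.0 and 29.6 CPM (log2 -1.198, SE 0.16, adjusted p = 9.04e-06). The transporter genes NRT1 for nicotinamide riboside, BIO5 for biotin precursors and TNA1 for nicotinic acid fell by 0.75 on the log2 scale (SE 0.17), 0.66 (SE 0.13) and 0.55 (SE 0.10). Of NAD synthesis from tryptophan, BNA5 fell by 0.54 on the log2 scale (SE 0.10) and BNA2 by 0.44 (SE 0.10). BNA3, a kynurenine aminotransferase gene, which draws an intermediate off that path, went from 240.2, 287 and 221 to 531, 580.1 and 516 CPM (log2 1.11, SE 0.11, adjusted p = 7.64e-08). 7 of the 9 lower calls and only that of BNA3 among the higher ones were kept in each fit that left out 1 library. Without pre-treated replicate 2 or 3, BNA3 was the 1 higher call left.

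PHO84 (YML123C, chromosome XIII, 24037 to 25800) fell most, from 182, 191 and 165 to 35.0, 31.3 and 43.0 CPM (log2 -2.31, SE 0.13, adjusted p = 1.66e-11). It encodes a phosphate transporter of high affinity, and every pre-treated library lay far below every untreated one. The rest of the phosphate list did not follow it. Of 23 genes only VTC1 was also lower, and VTC5 (log2 0.72, SE 0.14) and PHO8 were higher, and the calls of VTC1 and PHO8 were not kept in each fit that left out 1 library. PHO3, an acid phosphatase gene known to answer to thiamine, went from 51.0, 61.6 and 61.3 to 202, 194 and 174 CPM (log2 1.73, SE 0.12, adjusted p = 8.70e-10), while of the other thiamine genes tested THI6 rose and THI2 fell, the latter a call not kept in each fit that left out 1 library. Zinc genes gave 2 of 19 higher and 3 lower, against 7.06% and 6.06% of all genes. ZPS1 (chromosome XV, 34658 to 35407), a cell wall gene known to rise in zinc shortage and at alkaline pH, went from 92.0, 98.3 and 70.6 to 348, 382 and 260.0 CPM (log2 1.88, SE 0.15, adjusted p = 1.81e-07), and IZH1 fell by 0.71 on the log2 scale (SE 0.11). These 2 were the zinc calls kept in each fit that left out 1 library.

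SPS100 (YHR139C, chromosome VIII, 378219 to 379199), a spore wall gene, fell from 704, 787 and 768 to 253, 168 and 174 CPM (log2 -1.92, SE 0.13, adjusted p = 6.03e-08), with pre-treated replicate 1 above the other pre-treated ones. OSW1 and SPR28, which act in spore formation, and MSH4, of meiotic crossing over, fell from low levels. OSW1 went from 8.50, 12.4 and 16.0 to 2.85, 3.63 and 2.39 CPM (log2 -1.93, SE 0.37, adjusted p = 0.000764), and its lowest library held 5 counts. SPR28 fell by 1.42 on the log2 scale (SE 0.33) and MSH4 by 1.10 (SE 0.32), and the MSH4 call ended without untreated replicate 2 or 3 or pre-treated replicate 1 or 3. In the list of meiosis and sporulation 8 of 15 genes passed the filter, and SPO11 alone was called, higher, a call that ended without untreated replicate 2 or pre-treated replicate 1. Among stress and stationary phase markers 10 of 26 fell (38.5%) and 3 rose (11.5%), against 6.06% and 7.06% of all genes. SNZ1 came first among the risers (log2 0.91, SE 0.12, adjusted p = 1.76e-05). SPI1, a cell wall gene of stationary phase, went from 628, 608 and 472 to 310.3, 259 and 293 CPM (log2 -0.995, SE 0.11, adjusted p = 7.56e-07), and DDR2, a general stress gene, fell by 0.70 on the log2 scale (SE 0.11). DAK2, a dihydroxyacetone kinase gene, went from 36.7, 36.7 and 30.7 to 16.3, 7.25 and 16.7 CPM (log2 -1.39, SE 0.23, adjusted p = 0.000188), and GUT2, of glycerol use, fell by 0.73 on the log2 scale (SE 0.10). Other large falls from low levels were those of RFU1 (log2 -1.35, SE 0.30), DPA10 (log2 -1.14, SE 0.17), REG2 (log2 -1.202, SE 0.33) and YMR175W-A (log2 -1.12, SE 0.26). The call of REG2 ended without pre-treated replicate 2, and that of YMR175W-A without pre-treated replicate 1 or 3.

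Desaturation and late sterol synthesis fell in part, with 6 of 29 sterol and fatty acid genes lower (20.7%) and 2 higher (6.9%). Among all genes tested the shares were 6.06% and 7.06%. OLE1, the fatty acid desaturase gene, went from 3132, 3434 and 3009 to 1874, 1594 and 1499 CPM (log2 -0.95, SE 0.11, adjusted p = 8.96e-07). ERG25 went from 2189.8, 2192 and 1894 to 1314, 1053 and 941 CPM (log2 -0.92, SE 0.11, adjusted p = 4.11e-06), and ERG11 and ERG3 fell by 0.61 on the log2 scale (SE 0.10) and 0.60 (SE 0.10). The other fallers were ERG5 and HMG1, whose calls were not kept in each fit that left out 1 library. ERG7, the lanosterol synthase gene, rose by 0.74 on the log2 scale (SE 0.15) and ERG4 by 0.50 (SE 0.11). Iron and copper genes gave 4 of 27 higher (14.8%) and 6 lower (22.2%), with ENB1 (log2 0.71, SE 0.11) first and FIT2 (log2 -0.65, SE 0.11) last. Oxidative stress genes gave 2 of 20 higher (10.0%) and 5 lower (25.0%), with a median log2 change of -0.23. CCP1, cytochrome c peroxidase of mitochondria, went from 69.6, 59.0 and 50.6 to 155, 157 and 139.6 CPM (log2 1.30, SE 0.13, adjusted p = 1.43e-07) and was the exception to small changes there. Its partner CYC1, cytochrome c, rose by 0.94 on the log2 scale (SE 0.17), the largest change among 35 respiratory chain genes. Of these 35 genes 4 rose (11.4%) and 5 fell (14.3%). Without pre-treated replicate 2 or 3 the iron list gave 2 higher and 3 lower and the oxidative stress list 2 lower, and without untreated replicate 1 the former gave 2 higher and the latter 3 lower. The respiratory list gave 2 higher without untreated replicate 2 or any 1 pre-treated replicate, and 3, 2, 1 and 2 lower without untreated replicate 2 and pre-treated replicates 1, 2 and 3.

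The Hsp90 genes themselves, after 24 h of regrowth, were close to the untreated level. HSP82 stood at 2810.1, 2767 and 2346 CPM without the drug and 2038, 2022 and 2231 CPM after it (log2 -0.33, SE 0.10, adjusted p = 0.0316). Its groups lay apart by little, and the call ended in each fit that left out 1 library except the one without untreated replicate 3 (adjusted p up to 0.193). HSC82 stood at 2424, 2751 and 2108 CPM without the drug and 2167, 2155 and 2054 CPM after it, with groups that overlapped (log2 -0.19, SE 0.11, adjusted p = 0.256), and it was called lower without untreated replicate 3 (adjusted p = 0.0357). HSC82 held 48.0 ± 1.82% of the RNA per kilobase of the pair before and 50.5 ± 2.09% after. Reads that match both genes were not counted, per the per-library file headers, so the levels and shares of this pair are uncertain. Of 15 Hsp90 and co-chaperone genes 0 rose and 2 fell (13.3%), against 7.06% and 6.06% of all genes. The fallers were HSP82 and STI1 (log2 -0.32, SE 0.10, adjusted p = 0.0282). The STI1 call ended without untreated replicate 1 or any 1 pre-treated replicate.

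Other cytosolic chaperone genes gave 5 lower (23.8%) and 1 higher (4.76%) of 21, against 6.06% and 7.06% of all genes. HSP26, a small heat shock protein gene and one of the most abundant RNAs, went from 17264, 21225 and 16116 to 12191, 11000.0 and 10172 CPM (log2 -0.71, SE 0.12, adjusted p = 0.000263). The inducible Hsp70 genes SSA3 and SSA4 fell from 1171 ± 34.4 to 701 ± 26.6 and from 1047 ± 32.2 to 703 ± 16.9 CPM (SD, n = 3, log2 -0.74, SE 0.09, adjusted p = 3.91e-06 and log2 -0.58, SE 0.09, adjusted p = 9.25e-05). HSP104, the disaggregase gene, was not called (log2 -0.25, SE 0.11, adjusted p = 0.156). The higher call, CUR1, ended in each fit that left out 1 library except the one without pre-treated replicate 1 (adjusted p up to 0.239), and also with DESeq2 and with upper-quartile factors. The lower count was 3 without any 1 pre-treated replicate, and HSP26, SSA3 and SSA4 were the ones kept in each fit that left out 1 library. In the endoplasmic reticulum 4 of 23 folding genes rose and 0 fell, and the 4 were kept in each such fit. The oxidase gene ERO1 went from 85.6, 96.8 and 100.0 to 169, 186 and 190.2 CPM (log2 0.96, SE 0.11, adjusted p = 1.90e-06). KAR2, the Hsp70 of that compartment, and its exchange factors SIL1 and LHS1 rose by 0.65 on the log2 scale (SE 0.10), 0.93 (SE 0.17) and 0.52 (SE 0.13). HAC1, the factor that drives these genes after its RNA is spliced, stood at 1814, 1049 and 1373 CPM without the drug and 1119.9, 1111 and 1140.4 CPM after it (log2 -0.33, SE 0.17, adjusted p = 0.257), with untreated cultures spread widely, and it was called lower without untreated replicate 2 (adjusted p = 0.00435). In the proteasome list 9 of 35 genes were called higher by at most 0.39 on the log2 scale and 0 lower, but none of these calls was kept in each fit that left out 1 library. The count was 0 without untreated replicate 1 or pre-treated replicate 1 or 2, and 3 without pre-treated replicate 3.

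Ribosomal protein genes as a group changed little at the RNA level. Ribosomal proteins gave 1 of 82 higher and 6 lower for the large subunit (median log2 change -0.11). For the small subunit they gave 1 of 56 higher and 4 lower (median log2 change -0.04). These shares were near or below the 7.06% and 6.06% of all genes tested, a background not matched for level. In the highest of 5 quintiles by level, 12.57% of genes were higher and 14.72% lower. RPL22B (log2 -0.89, SE 0.15) and RPS14B (log2 -0.59, SE 0.10), both with a paralog, fell most. Mitochondrial ribosomal proteins gave 0 of 67 higher and 2 lower, and ribosome biogenesis 4 of 42 and 2, with BCD1 lowest (log2 -0.996, SE 0.14, adjusted p = 2.28e-05). Translation factors gave 1 of 30 higher and 3 lower. The elongation factor 3 gene YEF3 was the riser, from 1013, 1384 and 1447 to 1838, 1830.2 and 1829 CPM (log2 0.52, SE 0.11, adjusted p = 0.00286), and untreated replicate 1 was the lowest of its group. The 17 genes listed as translation regulators gave 3 higher (17.6%) and 0 lower. Among them, LSO1 rose from 16.5, 16.6 and 26.7 to 36.7, 33.5 and 30.6 CPM (log2 0.87, SE 0.20, adjusted p = 0.00437). Aminoacyl-tRNA synthetases gave 6 of 19 higher (31.6%) and 0 lower (median log2 change 0.28), and 10 higher without untreated replicate 2. Of the 6 calls 3 were kept in each fit that left out 1 library, and ALA1, HTS1 and ILS1 were not. In these lists the counts moved with single libraries. The large subunit gave 3 lower without untreated replicate 3 and 2 without pre-treated replicate 2 or 3. The small subunit gave 2 lower without untreated replicate 1 or pre-treated replicate 3 and 1 without pre-treated replicate 2. Translation factors gave 0 lower without pre-treated replicate 2 or 3, 1 without untreated replicate 1 and 5 without untreated replicate 3. Ribosome biogenesis gave 1 higher without untreated replicate 1 or pre-treated replicate 1 or 2, and 6 lower without untreated replicate 1 and 4 without pre-treated replicate 1. The 1 higher call of each subunit and the 2 lower calls of mitochondrial ribosomal proteins were not kept in each fit that left out 1 library. The regulators gave 1 higher without pre-treated replicate 1 or 2. Among the synthetases, THS1, for threonine, rose by 0.56 on the log2 scale (SE 0.11) and CDC60, for leucine, by 0.53 (SE 0.10).

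In the CLB2 cluster, which peaks at mitosis, 12 of 18 rose and 0 fell (median log2 change 0.58), against 7.06% and 6.06% of all genes. ALK1, a haspin-like kinase gene, went from 36.7, 46.1 and 52.0 to 93.7, 108 and 108 CPM (log2 1.24, SE 0.14, adjusted p = 1.24e-06). The bud neck gene BUD4, the membrane protein gene SUR7, the cyclin gene CLB1 and the factor gene SWI5 rose by 0.96 on the log2 scale (SE 0.17), 0.95 (SE 0.13), 0.83 (SE 0.14) and 0.70 (SE 0.15). These 5 calls were kept in each fit that left out 1 library. The count was 7 without pre-treated replicate 2, and 6 of the 12 calls were kept with DESeq2. Histone genes gave 6 of 10 higher and 0 lower (median log2 change 0.41), with HTB2 at 56.3, 51.8 and 40.0 CPM without the drug and 91.2, 92.9 and 111 CPM after it (log2 0.94, SE 0.14, adjusted p = 4.53e-05) and HTA2 and HHF2 up by 0.89 on the log2 scale (SE 0.12) and 0.62 (SE 0.10). Of the 6 histone calls 4 were kept in each fit that left out 1 library, and HHT2 and HHO1 were not. Histone genes come in near-identical copies, so each gene's level is uncertain. G1/S and DNA replication genes gave 3 of 27 higher and 0 lower, and none of the 3 was kept in each fit that left out 1 library. Cell wall genes gave 8 of 32 higher and 5 lower, and the mannoprotein gene CWP1 went from 16.5, 12.4 and 19.99 to 55.0, 62.5 and 45.4 CPM (log2 1.81, SE 0.20, adjusted p = 6.55e-07). UTR2 and TIP1 rose by 0.98 on the log2 scale (SE 0.20) and 0.95 (SE 0.14), and PST1, NCW2 and SED1 fell by 0.63 (SE 0.10), 0.59 (SE 0.09) and 0.57 (SE 0.12). The lower count was 9 without untreated replicate 3. Of the cell wall calls 6 of 8 higher and 4 of 5 lower were kept in each fit that left out 1 library. SCW4, CHS2 and HSP150 were not. The share of dividing cells at harvest was not measured.

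Of the mating genes, the a-specific ones were the more abundant in both groups. Of 7 a-specific genes 4 rose and 0 fell, the pheromone receptor gene STE2 from 164, 155 and 139 to 257, 282 and 253 CPM (log2 0.78, SE 0.10, adjusted p = 1.14e-05), BAR1 by 0.76 on the log2 scale (SE 0.14), MFA1 by 0.63 (SE 0.15) and STE6 by 0.52 (SE 0.11). MFA1 was not called without untreated replicate 2 (adjusted p = 0.0514). Of the alpha-specific genes, MF(ALPHA)1, a pheromone gene, went from 28.7, 36.2 and 19.99 to 56.6, 65.3 and 48.3 CPM (log2 0.92, SE 0.18, adjusted p = 0.000896), while STE3 (log2 -0.63, adjusted p = 0.120) and SAG1 (log2 0.21, adjusted p = 0.600) were not called. Of 15 tested mating genes shared by haploid cells 2 rose and 2 fell (median log2 change 0.01), against 7.06% and 6.06% of all genes. In each direction 1 call was kept in each fit that left out 1 library, and FAR1 higher and FUS2 lower were not. The largest rise was that of HO, the endonuclease gene of mating-type switching. HO went from 12.2, 4.14 and 5.33 to 22.8, 25.4 and 17.7 CPM (log2 1.52, SE 0.31, adjusted p = 0.00144), from few counts.

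The reporter plasmid took 1.25% to 1.47% of the counts in untreated and 1.66% to 1.80% in pre-treated libraries. The His reporter's coding sequence stood at 11256, 12688 and 13323 CPM without the drug and 15222, 15698 and 16191 CPM after it (log2 0.34, SE 0.11, adjusted p = 0.0449 for HisReporterCds). Every pre-treated library was higher, but the call ended without untreated replicate 1 or any 1 pre-treated replicate (adjusted p up to 0.205). The lacZ reporter was far lower and changed more, from 123, 73.5 and 128 to 198, 249 and 236 CPM (log2 1.11, SE 0.19, adjusted p = 0.00279 for LaczReporterCds). Its UTR feature rose by 0.60 on the log2 scale (SE 0.15, LaczReporterUtr), a call that ended without untreated replicate 2 or pre-treated replicate 3. The UTR feature of the His reporter was not called, with 1507, 974 and 790.3 CPM without the drug and 1124, 1079 and 1122 CPM after it (log2 0.01, SE 0.24, adjusted p = 0.981 for HisReporterUtr). More plasmid per cell and more RNA per plasmid cannot be told apart. Of the 7 common marker genes MET17, ADE2 and LYS2, all members of lists above, rose, and URA3 (log2 0.09), LEU2 (log2 -0.09), HIS3 (log2 0.10) and TRP1 (log2 -0.05) were not called (adjusted p = 0.662, 0.671, 0.765 and 0.921).

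**Figure D4:**
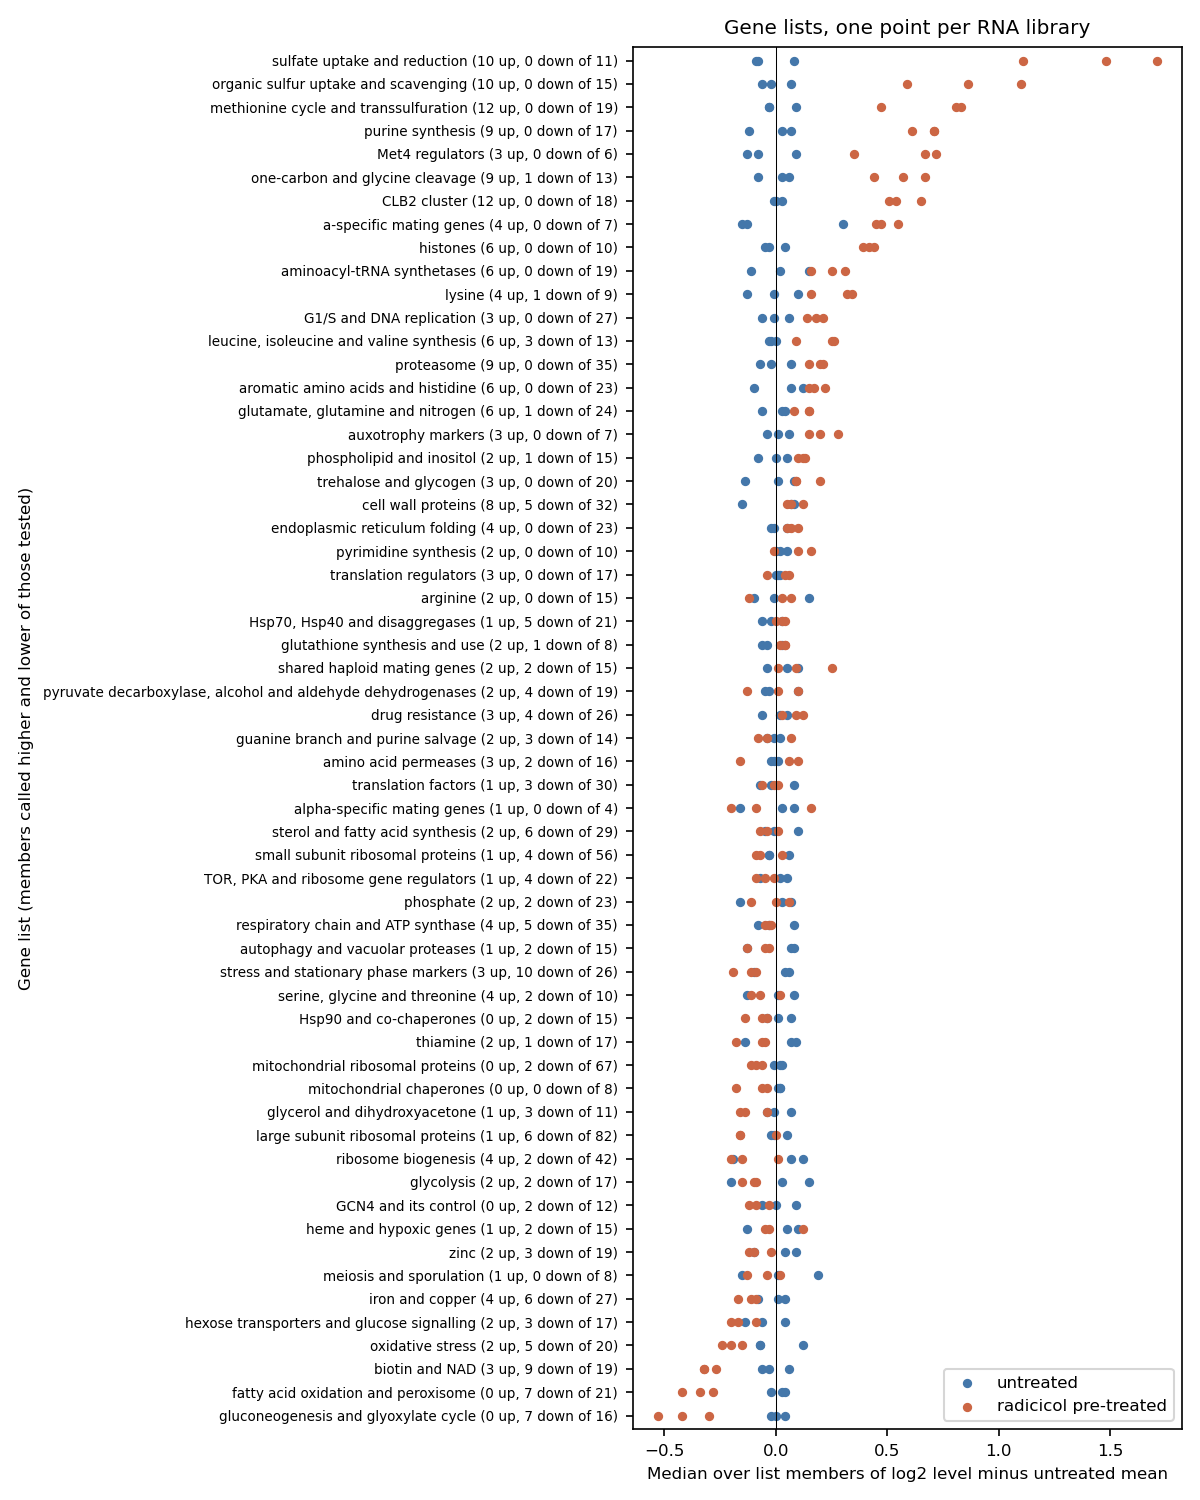
Each point is the median, over the tested members of a gene list, of the log2 level in 1 RNA library minus the mean of the untreated libraries. For sulfate uptake and reduction the 3 pre-treated points lie between 1.11 and 1.71 and the untreated ones between -0.09 and 0.08, and for most other lists the groups lie close to 0.

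Several of the larger rises were of genes in none of the lists. CSS1 (YIL169C, chromosome IX, 23119 to 26106), of unknown role, was low at 6.91, 6.21 and 6.66 CPM and reached 33.8, 34.0 and 32.5 CPM (log2 2.34, SE 0.23, adjusted p = 1.43e-07). GRX8, a glutaredoxin gene named after its values were seen, went from 47.3, 34.7 and 56.0 to 166, 163 and 141 CPM (log2 1.83, SE 0.15, adjusted p = 5.09e-09). The nitrilase gene NIT1 (chromosome IX, 34087 to 34686) and its neighbour YIL165C, both also named after their values were seen, rose together, by 1.598 on the log2 scale (SE 0.14) and 1.29 (SE 0.13). YOL163W (chromosome XV, 9597 to 10106) went from 9.57, 6.73 and 5.33 to 49.7, 29.0 and 20.6 CPM (log2 2.13, SE 0.41, adjusted p = 0.00774), and its neighbour YOL162W rose by 1.36 on the log2 scale (SE 0.27). Both calls ended without untreated replicate 1 (adjusted p = 0.0567 and 0.0809). With BDS1 they formed 1 of 9 runs of at least 3 neighbouring genes called in the same direction (chromosome XV, 6175 to 10766). Of the 79 genes changed by more than 2-fold, 50 were in at least 1 list.

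The lists that follow are small and gave at most 4 calls per direction, but low counts here were not always low shares. Among all genes tested 7.06% were higher and 6.06% lower. Drug resistance and phospholipid genes lay above these shares in both directions. Trehalose and glycogen lay above for rises only. The lists of heme, of TOR and PKA regulators and of autophagy lay above for falls only. Trehalose and glycogen gave 3 of 20 higher and 0 lower, and GSY1, a glycogen synthase gene, rose by 0.77 on the log2 scale (SE 0.14). Drug resistance gave 3 of 26 higher, kept in each fit that left out 1 library, and 4 lower, none of them kept. The risers were the transporter genes ATR1, from 62.7, 58.0 and 103 to 143, 134 and 138 CPM (log2 0.98, SE 0.15, adjusted p = 0.000159), PDR12, for weak acids, by 0.92 on the log2 scale (SE 0.10), and PDR5, the main multidrug pump gene, by 0.61 (SE 0.10). No drug resistance gene was called lower without untreated replicate 1 or pre-treated replicate 1 or 2. Heme and hypoxic genes gave 1 of 15 higher, HEM15 of the last step of heme synthesis (log2 0.76, SE 0.16), and 2 lower, which were not kept. Regulators of the TOR and PKA pathways and of ribosome genes gave 1 of 22 higher, RAP1 (log2 0.52, SE 0.14), and 4 lower, with IFH1, an activator of ribosomal protein genes, at log2 -0.52 (SE 0.15). RAP1 was not called without pre-treated replicate 2 or 3, and the lower count was 2 without untreated replicate 1 or pre-treated replicate 2 or 3. Autophagy and vacuolar proteases gave 1 of 15 higher and 2 lower, led by the protease gene PRB1 (log2 -0.65, SE 0.11). Phospholipid and inositol genes gave 2 of 15 higher and 1 lower, and no call was kept in each fit that left out 1 library. Of 8 mitochondrial chaperone genes none was called. HEM15, ATR1 and PDR12 had groups that did not overlap.

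Higher calls were more frequent near chromosome ends, taken from the first base and the last annotated feature. Within 20 kb of an end 21 of 114 genes were higher (18.4%) and 4 lower (3.51%), against 369 (6.78%) and 333 (6.12%) of the 5445 genes farther in. Among these 21 were 12 of the 64 rises over 2-fold. They were SUL1, SEO1, CHA1, MMP1, MHT1, BDS1, AGP3, SRY1, IMD2, YOL163W and YOL162W, described above, and YCR099C, a call that ended without pre-treated replicate 2 (adjusted p = 0.0546). With a limit of 30 kb 28 of 233 genes were higher (12.02%), a count that includes the 21 within 20 kb. Whole chromosomes did not shift by much. Chromosome medians of the log2 level lay between -0.077 and 0.059 in all 6 libraries, after centring each library, and the largest difference between the groups was 0.042. On 2 of 16 chromosomes the groups did not overlap, with the smallest p that an exact two-sided permutation test of 3 against 3 libraries can give, 0.1. Lower calls were commoner among short genes, with 25 of 289 genes of at most 300 bp lower (8.65%) and 12 of 469 above 3000 bp (2.56%). Both kinds of call were commoner among abundant genes. In the lowest of 5 quintiles by level 2.695% of genes were higher and 2.965% lower, and in the highest 12.57% and 14.72%. List shares were set against all genes tested, not against genes of like level.

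**Figure D5:**
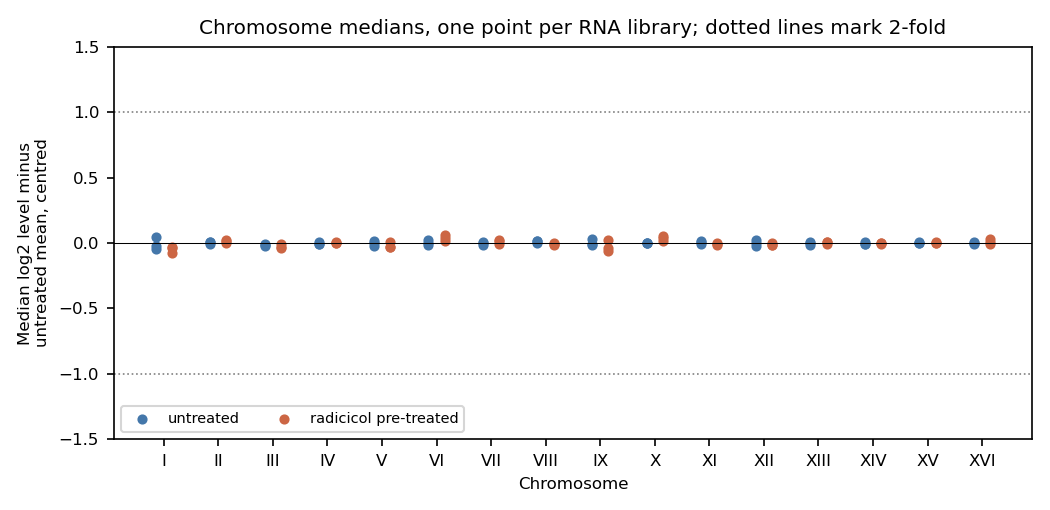
Each point is the median log2 level of the genes of 1 chromosome in 1 RNA library, relative to the untreated mean and centred on the library's median, and dotted lines mark a 2-fold change. All points lie between -0.077 and 0.059, far inside those lines.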

How the data were processed

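RNA-seq libraries of 3 untreated and 3 pre-treated cultures were compared. The authors deposited raw read counts per gene for the whole series in 1 table, with no note on how it was made, and raw counts per library, made with featureCounts 1.6.2 on an R64-1-1 annotation with a reporter plasmid, per the file headers. Reads that match several places or features were left out by those settings. The submitters' processing notes also name cutadapt 1.18, STAR 2.7.1a and SAMtools 1.9. The table's 7130 identifiers were used as deposited, and 6048 matched a RefSeq symbol.

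Genes were kept by filterByExpr (minimum count 10, minimum total 15) and tested with edgeR 4.0.16 in R 4.3.3 (TMM scaling, robust quasi-likelihood F test, Benjamini-Hochberg adjustment over 5563 genes, threshold 0.05), without a term for the replicate number. The labels do not say that the number marks the colony. Same-numbered libraries did not deviate together (r = -0.008, 0.072 and 0.014 over 4611 genes), so the number was not taken as a pairing. The steps were also run on simulated counts of independent libraries with equal spread in both groups. That run does not bear on pairing or on a single outlying library. No 2 libraries agreed within sampling noise. Depth was 729461 to 2453746 counts, and floors cover counting error only. Isozyme shares used CPM per kilobase of annotated length. Reads that match several copies were left out, so shares of all isozyme groups are uncertain where the copies are alike.

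The text names the 12 largest rises and falls among called genes whose groups do not overlap, up to 6 called members of largest change per list and direction, paralogs, the Hsp90 genes, GCN4, mating and marker genes. Further genes were named for their place in a pathway after their values were seen. The 61 lists with 1258 genes, of which 1224 were tested, and the comparison itself were chosen with earlier results of these data known, so counts over lists are descriptions and no list was tested as a set. Alternatives were the per-library files, RLE and upper-quartile factors, 2 other filters, a fit without robust estimation, a test against 1.2-fold, DESeq2 1.42.0, the replicate block and leaving out each library. Ribosome profiling libraries and sequences were not used here. Results of 2 lists are not reported here.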

Additional observations from a re-analysis of the deposited data

How the results depend on the processing

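The direction of change of the 386 genes followed through the alternatives was the same, except in 7 genes that were not called: HIS3 (-0.14 to 0.29 when 1 library was left out), TRP1 (-0.26 to 0.11), ADE16 (-0.06 to 0.03), LPD1 (-0.01 to 0.10), PHO2 (-0.05 to 0.12), HisReporterUtr (-0.16 to 0.32, and -0.01 with upper-quartile factors) and MET31 (-0.18 to 0.24, and -0.02 with upper-quartile factors). A test against a change of 1.2-fold called 283 genes, 182 higher and 101 lower, as its construction asks for larger changes. DESeq2 called 484, 266 higher and 218 lower, and 480 of them were among the 730, and the cause of the smaller count was not tested. Leaving out 1 library gave 404 to 757 calls, 243 to 406 higher, 161 to 351 lower and 70 to 102 over 2-fold. The other alternatives gave 665 to 780 calls. Upper-quartile factors gave 351 rises and 401 falls, the only scaling under which falls outnumbered rises, and the median of all genes moved to -0.031. With the replicate number as a block 682 genes were called (371 rises, 311 falls), and 653 of the 730 were among them. Same-numbered libraries did not correlate above 0.1, and the labels do not say that a number marks the colony. Colony effects on single genes were not tested, so why calls were lost under this block is not known. Over all alternatives 260 of the 730 genes were called in the same direction. Within 30 kb of a chromosome end 12.02% of genes were higher, against 18.4% within 20 kb. BAS1, FBP1, HSC82 and HAC1 were called only without 1 library, and STR3 without 1 library, with the replicate block and without robust estimation. Counts of promoter motifs were planned and not run. Depth limits genes near the floor of 1.22 to 4.11 CPM.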
